A study of Mus musculus with 11 samples.

Results

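The genes described here are those of the mouse alpha-like and beta-like globin clusters together with *Ahsp*, the gene of a chaperone that binds free alpha globin. They were chosen by name, with earlier results of these data known: *Hba-x*, *Hba-a1*, *Hba-a2*, *Hbq1a* and *Hbq1b* of the alpha cluster on chromosome 11, *Hbb-y*, *Hbb-bh1*, *Hbb-bs* and *Hbb-bt* of the beta cluster on chromosome 7, and *Ahsp*. Of these 10 genes, 9 were matched to a gene identifier among the 55487 of the count files, and all 9 were among the 24177 genes tested; *Ahsp* is not analysed here.

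RNA was sequenced from whole embryonic hearts, 1 library per heart, of 5 *Pde2A*-/- and 6 *Pde2A*+/+ mice at E14.5. The strain is labelled B6; 129P2-Pde2A<tm1Dgen>, the targeted allele is carried from conception in every tissue, no heart was treated, and embryos of both sexes were used without the sex of each heart being given. The labels name the hearts by letters (A, B and D of *Pde2A*-/-, H and E of *Pde2A*+/+) or numbers (14 and 15, and 7, 11, 6 and 8), and do not say whether hearts shared a litter, so the p-values below measure the spread between these hearts. A whole heart also holds the blood left in its chambers and vessels, and in such bulk samples fewer red cells and less globin RNA per cell cannot be told apart.

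Hemoglobin is a tetramer of alpha-like and beta-like chains, and the genes of each cluster are used in sequence during development. The embryonic chains of *Hba-x*, *Hbb-y* and *Hbb-bh1* are typical of red cells that arise in the yolk sac. Red cells made in the fetal liver carry the adult chains of *Hba-a1*, *Hba-a2*, *Hbb-bs* and *Hbb-bt*, though adult chains, above all alpha, are not confined to them. The embryonic to adult ratios below are therefore ratios of RNA counts and not of these kinds of red cell. At mid gestation both kinds of red cell circulate, and the product of the theta genes *Hbq1a* and *Hbq1b* has no settled role in oxygen transport.

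The adult genes of each cluster are near-identical copies, which decides how many of their reads can be counted. The coding sequences of *Hbb-bs* and *Hbb-bt*, 441 bases each, differ at 1 base, and those of *Hba-a1* and *Hba-a2*, 426 bases each, also at 1. Stretches of coding sequence that contain this base are shown to make the likeness visible, as they stand in GENCODE M21 on GRCm38, 5′ to 3′ on the strand of the gene, with the differing base in capitals. They lie in the last exon of each gene, on the minus strand at chr7:103826674-103826793 for *Hbb-bs* and chr7:103812665-103812784 for *Hbb-bt*, and on the plus strand at chr11:32284284-32284343 for *Hba-a1* and chr11:32297101-32297160 for *Hba-a2*.
Hbb-bs: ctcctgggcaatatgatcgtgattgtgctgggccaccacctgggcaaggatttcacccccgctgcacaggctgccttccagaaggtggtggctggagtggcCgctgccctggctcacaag
Hbb-bt: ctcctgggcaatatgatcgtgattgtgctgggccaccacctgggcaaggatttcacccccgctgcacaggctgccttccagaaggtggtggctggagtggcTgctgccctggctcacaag
Hba-a1: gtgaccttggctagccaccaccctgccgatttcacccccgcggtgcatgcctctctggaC
Hba-a2: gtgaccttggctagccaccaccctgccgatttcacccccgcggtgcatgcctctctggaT

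A read that fits both copies equally well was counted on neither of them. Of all stretches of 50 bases in the annotated transcript, 65.8% of those of *Hbb-bs* and 58.3% of those of *Hbb-bt* also stand in the other gene, as do 67.5% for *Hba-a1* and 86.9% for *Hba-a2*. *Hba-x*, *Hbb-y* and *Hbb-bh1* share 0% of such stretches with any other gene, and the coding sequences of *Hbb-y* and *Hbb-bh1* are 76.42% identical. The counts of the adult genes therefore rest on the remaining stretches and are lower than the number of molecules sequenced, while those of the embryonic genes are not reduced in this way.

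The theta genes are close copies too, and the bases before their starts are shown because of this pair *Hbq1b* alone passed the test between the genotypes. In the RefSeq promoter table for GRCm38.p6, the 120 bases before the start, on the plus strand at chr11:32299949-32300068 for *Hbq1a* and chr11:32286844-32286963 for *Hbq1b*, are identical at 117 positions. The 3 differing bases are in capitals.
Hbq1a: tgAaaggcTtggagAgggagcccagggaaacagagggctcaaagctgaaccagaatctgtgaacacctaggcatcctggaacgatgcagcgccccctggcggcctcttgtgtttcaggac
Hbq1b: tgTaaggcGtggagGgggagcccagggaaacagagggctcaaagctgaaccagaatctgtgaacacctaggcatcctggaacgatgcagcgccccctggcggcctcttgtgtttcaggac

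RefSeq promoters were found for 8 of the 10 genes. In the 120 bases before the start, CACCC or its reverse complement GGGTG, the core of the sites of the KLF factors, was present in 6 of 8, all but the theta genes, against 31.8% of 32544 promoters. CCAAT or ATTGG was found in 5 of 8 against 21.2%, TATAA or TTATA in 5 of 8 against 11.9%, and GATAA or TTATC, the core of GATA sites, in *Hba-x* alone against 10.4%. *Hbb-bt* held 2 CACCC and 3 CCAAT matches, of which a forward and a reverse CCAAT lie next to each other, and *Hbb-bs* 1 of each. The 8 promoters are not independent, since those of *Hba-a1* and *Hba-a2* hold nearly the same bases at a small shift and those of the theta genes are close copies. Among the 32544 promoters identical sequences were counted once. A match is a description of these letters only.

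*Pde2a* was read first in every library. It had between 0 and 2 counts per heart in both genotypes and 7 counts in all. The annotation holds an overlapping gene model on the same strand, *Gm45837*, with 0 to 2 counts per heart as well, and reads that fall on both are counted on neither, so that *Pde2a* gives no check of the genotype labels. Reads on the sense strand of genes numbered between 35865537 and 42835382 per heart. The heart markers were present, with a summed level of 10 cardiomyocyte genes between 33571 and 44928 CPM (counts of a gene scaled to the size of the library), and hepatocyte markers were found unevenly. The sum of 8 hepatocyte genes was between 39.8 and 117.5 CPM in *Pde2A*+/+ hearts 11, H and E, 44.2 CPM in *Pde2A*-/- heart D, and at most 7.5 CPM in the other hearts. One further library stood apart: *Myb*, a factor of blood progenitors, was at 22.9 CPM in *Pde2A*+/+ heart 7 and at most 4.55 CPM elsewhere.

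Globins took a small and variable share of the reads in both genotypes. Together the 9 genes held 0.700% ± 0.144 (SD, n = 5) of the sense reads in *Pde2A*-/- hearts and 0.933% ± 0.446 (SD, n = 6) in *Pde2A*+/+ hearts, ranging from 0.560% to 0.879% and from 0.449% to 1.64%. The groups overlap, with the *Pde2A*+/+ hearts 6 and 11 at both ends of the whole range. Adult beta chains held 0.243% ± 0.0477 in *Pde2A*-/- hearts and 0.415% ± 0.225 in *Pde2A*+/+ hearts, adult alpha chains 0.192% ± 0.0412 and 0.292% ± 0.144. Embryonic beta chains held 0.238% ± 0.0758 and 0.203% ± 0.0986, and embryonic alpha 0.0262% ± 0.0103 and 0.0227% ± 0.0106. The wide spread among *Pde2A*+/+ hearts is larger than each of these differences.

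In assigned counts per kilobase of exon, *Hbb-bs* and *Hbb-y* led in both genotypes. In *Pde2A*+/+ hearts the order of mean CPM per kilobase was *Hbb-bs* (3577 ± 1933, SD), *Hbb-y* (3153 ± 1494), *Hba-a1* (2129 ± 1012), *Hbb-bt* (1953 ± 1017), *Hba-a2* (1756 ± 867), *Hba-x* (241 ± 110), *Hbb-bh1* (33.2 ± 15.8), *Hbq1a* (0.608 ± 0.215) and *Hbq1b* (0.589 ± 0.267). *Hbb-bs* stood above *Hbb-y* in 3 of 6 hearts, *Hbb-y* above *Hba-a1* in 4 of 6 and *Hbq1a* above *Hbq1b* in 2 of 6, so these neighbours in the order do not differ beyond the spread; the other steps held in 6 of 6 hearts. In *Pde2A*-/- hearts the order was *Hbb-y* (3720 ± 1194), *Hbb-bs* (2514 ± 537), *Hba-a1* (1495 ± 334), *Hba-a2* (1080 ± 236), *Hbb-bt* (726 ± 133), *Hba-x* (281 ± 113), *Hbb-bh1* (57.5 ± 17.2), *Hbq1b* (4.45 ± 1.70) and *Hbq1a* (0.392 ± 0.110). Every step held in 5 of 5 hearts except that *Hbb-y* exceeded *Hbb-bs* in 4 of 5. *Hbb-bt* thus stood below *Hba-a2* in each *Pde2A*-/- heart and above it in each *Pde2A*+/+ heart, and *Hbq1b* was above *Hbq1a* in all *Pde2A*-/- hearts. The exon length includes the parts whose reads could not be assigned, so the level of the adult genes is understated, and not equally. Shared stretches of 50 bases make up 86.9% for *Hba-a2*, 67.5% for *Hba-a1*, 65.8% for *Hbb-bs*, 58.3% for *Hbb-bt* and 0% for *Hbb-y*. The order is therefore one of assigned counts, and the order of RNA levels between these genes cannot be read from it.

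**Figure D1:**
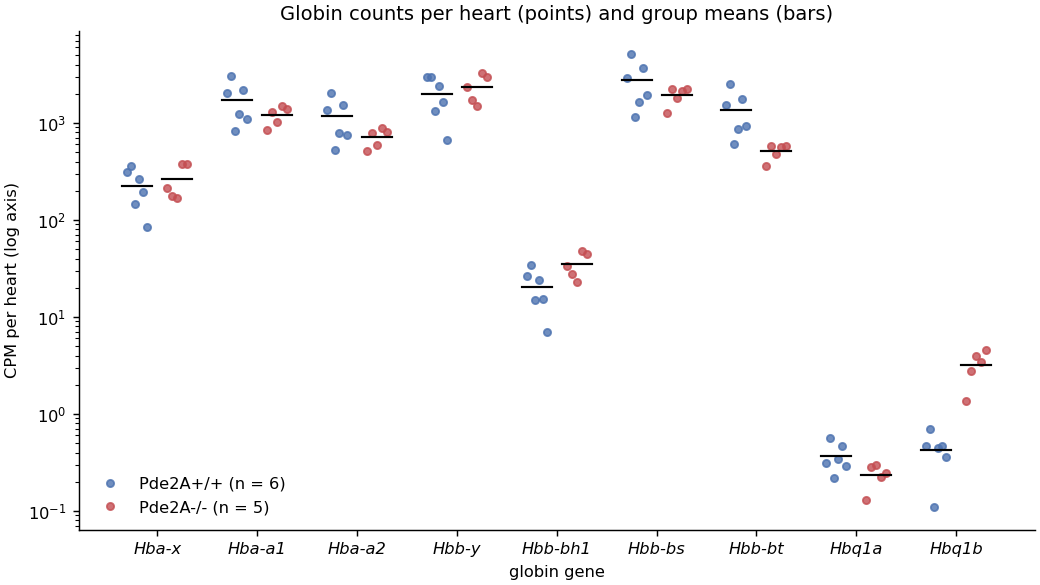
Normalised counts of the 9 globin genes in each heart, in CPM on a log axis, blue for *Pde2A*+/+ (n = 6) and red for *Pde2A*-/- (n = 5), with a bar at each group mean. The groups separate completely for *Hbb-bt*, between 359 and 576 CPM in *Pde2A*-/- hearts and from 601 CPM upward in *Pde2A*+/+ hearts, and for *Hbq1b*, and overlap for the other 7 genes.

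Differences between the genotypes were tested gene by gene with the quasi-likelihood test of edgeR, and p-values were adjusted after Benjamini-Hochberg over all genes tested. The word called is used of a gene whose adjusted p was under 0.05 and which changed 2-fold or more. Of the 9 globin genes, 1 was called higher, *Hbq1b*, where 2.21% of all genes tested were called higher, and 1 was called lower, *Hbb-bt*, where 0.372% were. The other 7 did not pass the adjusted p. The median log2 fold change (*Pde2A*-/- over *Pde2A*+/+) of the 9 genes was -0.51, beside -0.02 over all genes tested, with 5 below and 4 above 0.

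*Hba-x* (ENSMUSG00000055609, chr11:32276400-32278116), which encodes the embryonic zeta chain, was at 215, 177, 169, 379 and 376 CPM in *Pde2A*-/- hearts A, B, 14, D and 15. *Pde2A*+/+ hearts ranged from 85.2 to 356 CPM with a median of 228. Hearts D and 15 lay above all *Pde2A*+/+ hearts and the rest within their range. The log2 fold change was 0.22 (SE 0.33, adjusted p = 0.71, edgeR).

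Of the embryonic beta-like genes, *Hbb-y* (ENSMUSG00000052187, chr7:103851749-103853216), the source of the epsilon-y chain, was at 2338, 1724, 1504, 3245 and 2963 CPM in *Pde2A*-/- hearts A, B, 14, D and 15. In *Pde2A*+/+ hearts it ran from 660 to 2997 CPM with a median of 2017. Only heart D lay above that range, and the log2 fold change was 0.24 (SE 0.33, adjusted p = 0.69). *Hbb-bh1* (ENSMUSG00000052217, chr7:103841637-103843164), the other embryonic beta-like gene, was far lower, at 33.6, 27.6, 23.0, 47.7 and 44.2 CPM in the same *Pde2A*-/- hearts and at 7.06 to 34.1 CPM, median 19.8, in *Pde2A*+/+ hearts. Hearts D and 15 exceeded all *Pde2A*+/+ hearts. Its log2 fold change of 0.79 (SE 0.32) missed the threshold (adjusted p = 0.107) and passed it when *Pde2A*+/+ heart 11 was left out (log2 fold change 1.002, adjusted p = 0.0487, edgeR).

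The adult alpha genes both gave values below 0. *Hba-a1* (ENSMUSG00000069919, chr11:32283511-32284465) was at 852, 1305, 1014, 1503 and 1394 CPM in *Pde2A*-/- hearts A, B, 14, D and 15 and at 820 to 3014 CPM, median 1633, in *Pde2A*+/+ hearts, with a log2 fold change of -0.51 (SE 0.29, adjusted p = 0.25). All *Pde2A*-/- hearts lay within the *Pde2A*+/+ range. *Hba-a2* (ENSMUSG00000069917, chr11:32296489-32297298) was at 513, 791, 599, 889 and 811 CPM against 527 to 2057 CPM, median 1082, with a log2 fold change of -0.70 (SE 0.30, adjusted p = 0.13), and heart A alone was below all *Pde2A*+/+ hearts.

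The adult beta genes differed in their change. *Hbb-bs* (ENSMUSG00000052305, chr7:103826534-103828096) was at 1263, 2238, 1804, 2120 and 2230 CPM in *Pde2A*-/- hearts A, B, 14, D and 15, within the 1155 to 5148 CPM, median 2432, of *Pde2A*+/+ hearts, and its log2 fold change was -0.51 (SE 0.32, adjusted p = 0.31). *Hbb-bt* (ENSMUSG00000073940, chr7:103812524-103813996) was at 359, 574, 480, 564 and 576 CPM against 601 to 2523 CPM, median 1226. All 5 *Pde2A*-/- hearts lay below all 6 *Pde2A*+/+ hearts, as was so for 3.11% of all genes tested, although heart 6, the lowest of the *Pde2A*+/+ hearts, lay close to the highest *Pde2A*-/- hearts. In the counts assigned to it, *Hbb-bt* fell by 1.43 on the log2 scale (SE 0.31, adjusted p = 0.0105, edgeR). With the 4 hearts above 30 CPM of hepatocyte markers left out, an alternative chosen after seeing the data, its log2 fold change was -1.004 and the call was lost (adjusted p = 0.113).

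Of the theta genes, *Hbq1b* passed the test and *Hbq1a* did not. *Hbq1b* (ENSMUSG00000073063, chr11:32286965-32287784), which lies just downstream of *Hba-a1*, had 52, 118, 158, 125 and 166 counts in *Pde2A*-/- hearts A, B, 14, D and 15 and 18, 26, 4, 17, 19 and 15 counts in *Pde2A*+/+ hearts 7, 11, 6, 8, H and E. All *Pde2A*-/- hearts lay above all *Pde2A*+/+ hearts, as did those of 5.38% of all genes tested. It rose 7.49-fold, by 2.91 on the log2 scale (SE 0.36, adjusted p = 2.25e-04), and with the 4 hearts left out by 3.19 (adjusted p = 0.0184). *Hbq1a* (ENSMUSG00000020295, chr11:32300069-32300873), just downstream of *Hba-a2*, had 5, 12, 12, 8 and 9 counts against 12, 21, 8, 13, 19 and 12 counts in the same order of hearts, with a log2 fold change of -0.62 (SE 0.30, adjusted p = 0.17). Transcripts of the 2 theta genes share 36.8% and 39.8% of their stretches of 50 bases, so part of their reads could be counted on neither.

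Ratios of counts within a heart do not depend on library size, and 7 were compared by an exact permutation test over all 462 splits of the hearts, two-sided, whose smallest p is 0.0022. For 4 of them the genotypes did not overlap. No ratios of other genes were computed, so this count has no share over all ratios beside it. Among single genes, 5.38% had all *Pde2A*-/- hearts above all *Pde2A*+/+ hearts and 3.11% had them below. *Hbb-bt* to *Hbb-bs* and theta to adult alpha each hold a gene that already separated by itself, *Hbb-bt* and *Hbq1b*. Adjusted p-values below are over the 7 ratios.

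The embryonic to adult ratio of the alpha genes, *Hba-x* over the sum of *Hba-a1* and *Hba-a2*, was 0.158, 0.0846, 0.105, 0.158 and 0.171 in *Pde2A*-/- hearts A, B, 14, D and 15 and between 0.0457 and 0.129 in *Pde2A*+/+ hearts. The means were 0.135 ± 0.0380 (SD, n = 5) and 0.0828 ± 0.0325 (SD, n = 6), and 3 *Pde2A*-/- hearts exceeded the *Pde2A*+/+ range. The difference, 0.75 on the log2 scale (SE 0.31), gave p = 0.0476 by the exact permutation test and 0.0667 adjusted. For the beta genes, *Hbb-y* and *Hbb-bh1* over *Hbb-bs* and *Hbb-bt*, the ratio was 1.46, 0.623, 0.669, 1.23 and 1.07 in the same *Pde2A*-/- hearts and between 0.233 and 0.952 in *Pde2A*+/+ hearts, with means of 1.01 ± 0.361 and 0.553 ± 0.285. Again 3 of 5 hearts exceeded the *Pde2A*+/+ range, and the difference of 0.97 (SE 0.41) gave p = 0.0584 by the same exact test and 0.0682 adjusted.

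Neither embryonic to adult ratio passed the threshold after adjustment, and both moved with how the hearts were named and with the hepatocyte markers. Among the hearts named by letters the beta ratio was 0.623 to 1.46 in 3 *Pde2A*-/- and 0.233 to 0.305 in 2 *Pde2A*+/+ hearts, a log2 difference of 1.96, whereas among those named by numbers it was 0.669 to 1.07 in 2 and 0.391 to 0.952 in 4 hearts, a difference of 0.36. The alpha ratio behaved likewise, with 1.39 among letters and 0.46 among numbers. The *Pde2A*+/+ hearts with the lowest beta ratios, E, H and 11, are those with 117.5, 39.8 and 46.2 CPM of hepatocyte markers, but *Pde2A*-/- heart D, with 44.2 CPM, had a high ratio. Without these 4 hearts the log2 differences were 0.20 for alpha and 0.19 for beta (exact permutation p = 0.543 and 0.657), where the smallest p is 0.0286. Hearts H and E, the only *Pde2A*+/+ hearts named by letters, both had hepatocyte markers, so the naming and these markers cannot be fully told apart. The part of liver cells or of the naming in these ratios was not tested further.

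**Figure D2:**
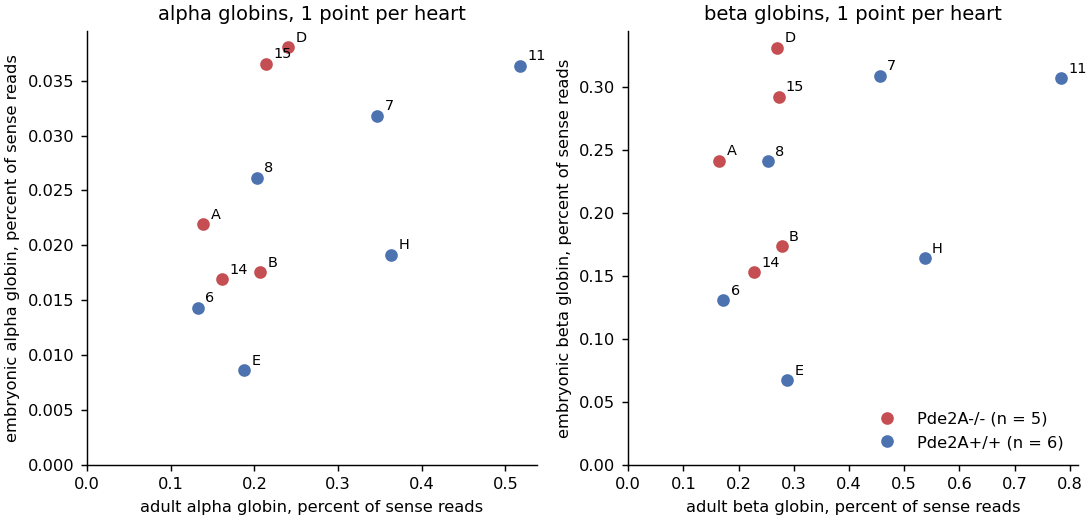
Embryonic against adult globin counts, alpha genes on the left and beta genes on the right, as percent of the sense reads of each heart, with 1 labelled point per heart, blue for *Pde2A*+/+ and red for *Pde2A*-/-. Hearts 11 and H hold the most adult globin of all, 0.783% and 0.537% for the beta genes, and heart E the least embryonic globin, 0.0672%.

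The split of reads between the adult beta genes varied little within a genotype and differed between the genotypes. *Hbb-bt* over *Hbb-bs* was 0.284, 0.257, 0.266, 0.266 and 0.258 in *Pde2A*-/- hearts A, B, 14, D and 15 and 0.518, 0.490, 0.521, 0.527, 0.489 and 0.484 in *Pde2A*+/+ hearts 7, 11, 6, 8, H and E. No heart lay between 0.284 and 0.484, and within each genotype the values stayed close together although the level varied 4.456-fold for *Hbb-bs* and 4.196-fold for *Hbb-bt* among *Pde2A*+/+ hearts. The ratio was 1.90-fold lower in *Pde2A*-/- hearts, a log2 difference of -0.92 (SE 0.03, p = 0.0022 by the exact permutation test, 0.0038 adjusted), with -0.86 among the hearts named by letters, -0.97 among those named by numbers and -0.97 without the 4 hearts with hepatocyte markers.

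The adult alpha genes showed the same kind of separation at a smaller size. *Hba-a2* over *Hba-a1* was between 0.582 and 0.606 in *Pde2A*-/- hearts and between 0.642 and 0.703 in *Pde2A*+/+ hearts, with means of 0.594 ± 0.00969 and 0.672 ± 0.0246 and a log2 difference of -0.18 (SE 0.02, exact permutation p = 0.0022, 0.0038 adjusted). Within the embryonic beta genes, *Hbb-bh1* over *Hbb-y* was 0.0151 ± 0.000624 in *Pde2A*-/- hearts, from 0.0144 to 0.0160, and 0.0103 ± 0.00113 in *Pde2A*+/+ hearts, from 0.00873 to 0.0115. The 5 *Pde2A*-/- hearts lay above all *Pde2A*+/+ hearts, by 0.55 on the log2 scale (SE 0.07, exact permutation p = 0.0022, 0.0038 adjusted), although neither gene by itself passed the test. The theta genes over the adult alpha genes gave 0.00178 ± 0.000614 against 0.000286 ± 0.0000641, a log2 difference of 2.60 (SE 0.26, exact permutation p = 0.0022, 0.0038 adjusted), carried by *Hbq1b*.

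The balance of adult alpha and adult beta counts, which are RNA counts of assigned reads only, did not pass the test. Adult alpha over adult beta counts was 0.794 ± 0.0739 in *Pde2A*-/- and 0.720 ± 0.0642 in *Pde2A*+/+ hearts, a log2 difference of 0.14 (SE 0.08, exact permutation p = 0.110), with 2 of 5 *Pde2A*-/- hearts above the *Pde2A*+/+ range. Among the hearts named by numbers the difference was -0.0023 and among those named by letters 0.31.

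**Figure D3:**
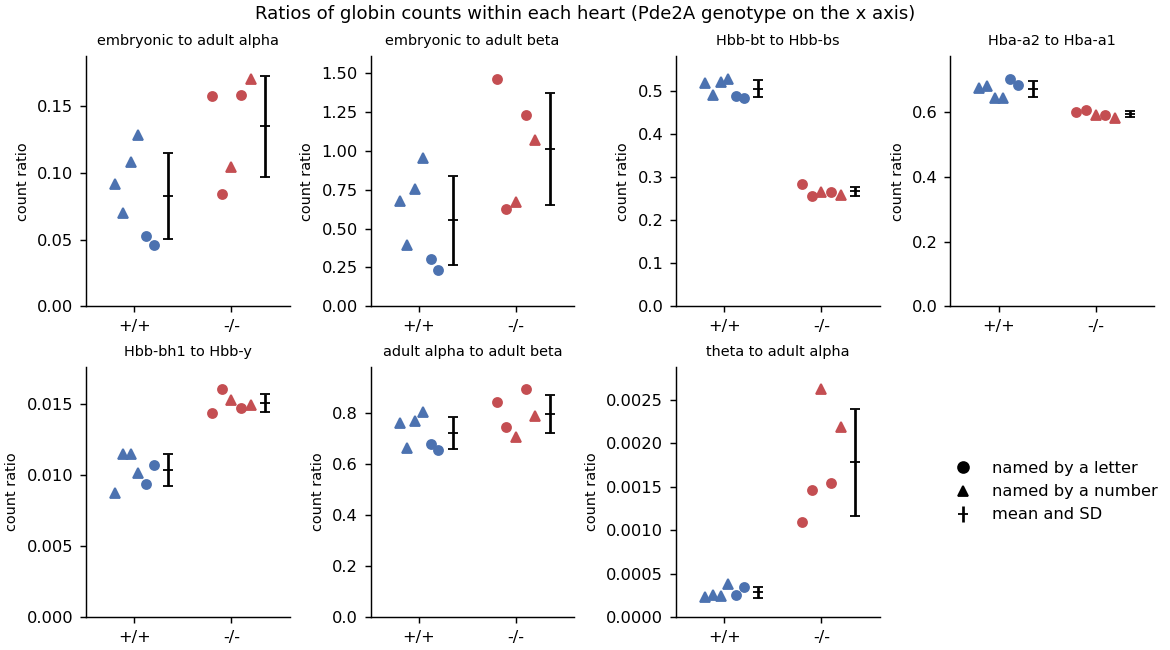
Ratios of globin counts within each heart, 1 panel per ratio with each y axis from 0, *Pde2A*+/+ in blue and *Pde2A*-/- in red, circles for hearts named by a letter and triangles for those named by a number, with the mean and SD beside them. *Hbb-bt* to *Hbb-bs*, *Hba-a2* to *Hba-a1*, *Hbb-bh1* to *Hbb-y* and theta to adult alpha do not overlap between the genotypes, while the embryonic to adult and the adult alpha to adult beta ratios do.

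Across the 11 hearts, after subtracting the mean of each genotype, the genes fell into an embryonic and an adult set, given as a description since the points share library depth and red cell content. *Hba-x*, *Hbb-y* and *Hbb-bh1* correlated with each other at Pearson's r of 0.97 to 0.98 in log2 CPM, although they lie on 2 chromosomes, and *Hba-a1*, *Hba-a2*, *Hbb-bs* and *Hbb-bt* at no less than 0.97. Between the sets r was lower, from 0.43 for *Hbb-bh1* and *Hbb-bs* to 0.68 for *Hba-x* and *Hba-a1*. *Hbq1b* stood nearer to the adult than to the embryonic genes, with r of 0.78 to 0.81 to the adult and 0.35 to 0.49 to the embryonic genes. Among *Pde2A*+/+ hearts each of these genes varied more in log2 CPM than at least 94.5% of the 14024 genes that averaged 1 CPM or more. *Hbq1a* set this lowest value. In these hearts *Hbq1a* and *Hbq1b* averaged 0.367 and 0.427 CPM, so their spread was compared with genes of greater depth.

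Among all other genes that reached 1 CPM on average, the most like *Hba-x* was *Hsd3b6* (r = 0.98), followed by *Pdzk1ip1* (0.97), the beta cluster gene *Hbb-bh0* (0.95), *9430015G10Rik* (0.91) and *Nrcam* (0.90). Those most like *Hba-a1* were *Tent5c* (0.97), *Epb41* (0.97), *Alas2* (0.96), *Pabpc1* (0.96) and *Mkrn1* (0.95), and those most like *Hbb-bs* were *Epb41* (0.99), *Alas2* (0.99), *Mkrn1* (0.99), *Tent5c* (0.98) and *Ube2l6* (0.97). *Alas2* is the erythroid enzyme of the entry step of heme synthesis and *Epb41* the red cell membrane protein 4.1. None of these 11 genes passed the adjusted p between the genotypes, with *Alas2* at a log2 fold change of -0.60 (adjusted p = 0.22).

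Many genes of red cell maturation rose while most globin genes did not pass the test. Of 13 regulators of globin genes, 8 passed the adjusted p as higher in *Pde2A*-/- hearts, where 8.93% of all genes did, and 0 as lower, with a median log2 fold change of 0.47. *Klf1*, the factor that activates adult beta globin through CACCC sites, rose by 4.10 on the log2 scale (SE 0.32, adjusted p = 6.60e-06, edgeR), from 1.02 to 17.7 CPM on average. *Gata1*, the master factor of erythroid cells, rose by 3.45 and *Nfe2*, which binds the control region of the beta cluster, by 2.52. *Bcl11a*, a repressor of embryonic globin genes, had 0.18 (adjusted p = 0.18), and *Sox6*, which acts with it, rose by 0.57.

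Of 13 genes of heme synthesis and supply, 9 passed as higher and 0 as lower, with a median of 0.56. The mitochondrial iron importer *Slc25a37* rose by 1.996 on the log2 scale and *Cpox*, an enzyme of the pathway, by 1.66. Among 12 genes of the red cell membrane, 10 were called higher and 0 lower, beside 2.21% and 0.372% of all genes tested, with a median of 2.37, led by *Rhag* (4.403), *Ermap* (4.05) and *Epb42* (2.96). Among 12 genes of erythroblasts and reticulocytes, 9 were called higher by the same rule, among them the red cell pyruvate kinase gene *Pklr* (4.996), *Hemgn* (4.94) and *Trim58* (3.15), and *Bpgm*, which makes the ligand that lowers the oxygen affinity of hemoglobin, had -0.98 and passed the adjusted p as lower. Without the 4 hearts with hepatocyte markers the counts past the adjusted p were 8 regulators, 7 genes of heme, 10 of the membrane and 9 of erythroblasts as higher and 0 as lower, so that *Bpgm* no longer passed. Over all 22624 genes tested in that smaller fit, 482 passed as higher and 50 as lower. The summed level of the membrane list was 1202 to 1866 CPM in *Pde2A*-/- and 761 to 977 CPM in *Pde2A*+/+ hearts without overlap, while the globin share of the reads overlapped.

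Markers of other cells moved with the genotype as well. All 8 macrophage genes passed the adjusted p as higher, beside 8.93% of all genes tested, with a median log2 fold change of 0.94 and a summed level of 237 to 298 CPM in *Pde2A*-/- hearts against 126 to 184 CPM in *Pde2A*+/+ hearts, led by *C1qc* (1.12) and *C1qb* (1.001). Of 7 megakaryocyte and platelet genes tested 3 passed as higher, led by *Ppbp* (1.81) and *Pf4* (1.24), with sums of 30.4 to 43.5 against 15.2 to 26.8 CPM. Beside 8.93% of all genes as higher and 5.67% as lower, of 10 cardiomyocyte genes 1 passed as higher and 2 as lower (median -0.07), of 8 endothelial genes 3 as higher and 1 as lower (median 0.18), and of 8 hepatocyte genes 0 passed (median -2.002), with 3 of them at 0 counts in some heart. Without the 4 hearts with hepatocyte markers, 6 macrophage genes and 2 platelet genes passed as higher, 0 cardiomyocyte genes passed in either direction, and 0 endothelial genes passed as higher and 1 as lower. Of all 22624 genes tested there, 482 passed as higher and 50 as lower. Of the hepatocyte genes 6 could then be tested, and 1 passed as higher. The part of these cells in the globin values was not tested.

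**Figure D4:**
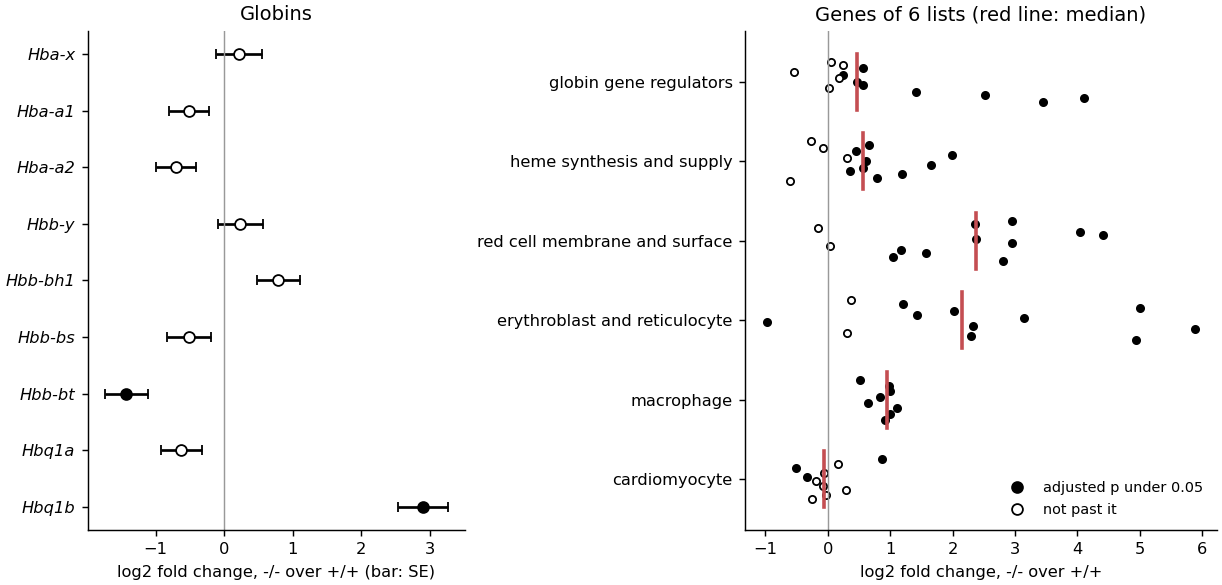
Log2 fold change, *Pde2A*-/- over *Pde2A*+/+, of the 9 globin genes with bars for the SE (left) and of each tested gene of 6 lists with a red line at the median (right), filled where the adjusted p is under 0.05. The globins lie on both sides of 0, from -1.43 to 2.91, whereas most red cell membrane and erythroblast genes lie to the right.

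None of the other globins passed the test. *Mb*, the myoglobin of heart muscle, was at 503 ± 51.7 CPM in *Pde2A*-/- and 539 ± 149 CPM in *Pde2A*+/+ hearts, with a log2 fold change of -0.10 (SE 0.16, adjusted p = 0.74), and *Cygb* had -0.24 (adjusted p = 0.46). *Hbb-bh2*, *Hba-ps4* and *Ngb* had at most 18 counts in any heart and did not pass the test, and *Hbb-bh3* and *Hba-ps3* had 2 counts and 1 count in all, too few to be tested.

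The beta cluster lies 2.39 to 2.43 Mb from the start of *Pde2a* on chromosome 7, and the alpha cluster on another chromosome. All 9 listed neighbours on chromosome 7 that could be tested passed the adjusted p, 5 as higher and 4 as lower, where 8.93% and 5.67% of all genes did. This list was chosen with earlier results of these data known, so its count is no measure of the region. Of the 101 genes within 5 Mb of *Pde2a* that averaged at least 1 CPM, 42 passed. The share that passed among all 14024 genes of at least 1 CPM was not counted. The shares above include genes of lower counts, so these 42 cannot be set against them. *Olfr66* and *Olfr64* were too low to be tested. Without the 4 hearts with hepatocyte markers 4 listed neighbours passed as higher and 1 as lower, beside 482 and 50 of 22624 genes tested. On the side of the beta cluster away from *Pde2a*, *Trim12a* had 0 to 3 counts in *Pde2A*-/- and 314 to 419 in *Pde2A*+/+ hearts, and *Trim34b* 85 to 164 against 1 to 6. *Trim30a* and *Trim12c* rose by 1.78 and 0.88 on the log2 scale and *Trim6* by 0.80, and *Trim30d*, *Trim5* and *Trim34a* fell by 2.84, 0.92 and 0.59. *Gm35082*, 0.747 Mb from *Pde2a* on its other side, had 151 to 305 counts against 0 in each *Pde2A*+/+ heart.

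Such genes are listed because the label of the strain names C57BL/6-type (B6) and 129P2 stocks, whose adult beta globin genes are known to differ, and the reference carries the *Hbb-bs* and *Hbb-bt* form. Which form the hearts carry was not read here. Near the alpha cluster, *Nprl3*, *Mpg*, *Rhbdf1*, *Snrnp25* and *Il9r* did not pass the adjusted p, with log2 fold changes of -0.17, 0.10, 0.04, 0.10 and -2.94, the last from 0 to 4 counts against 5 to 105. *Polr3k*, listed with them but placed on chromosome 2 by the annotation, fell by 0.32. Reads that mapped to several places were 10.9% to 11.6% of all reads in *Pde2A*-/- and 11.6% to 13.2% in *Pde2A*+/+ hearts. The part of sequence differences between the stocks in the splits of reads between globin genes was not tested. Nor was their part in the call of *Hbb-bt* or in the ratios that use adult beta counts.

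**Figure D5:**
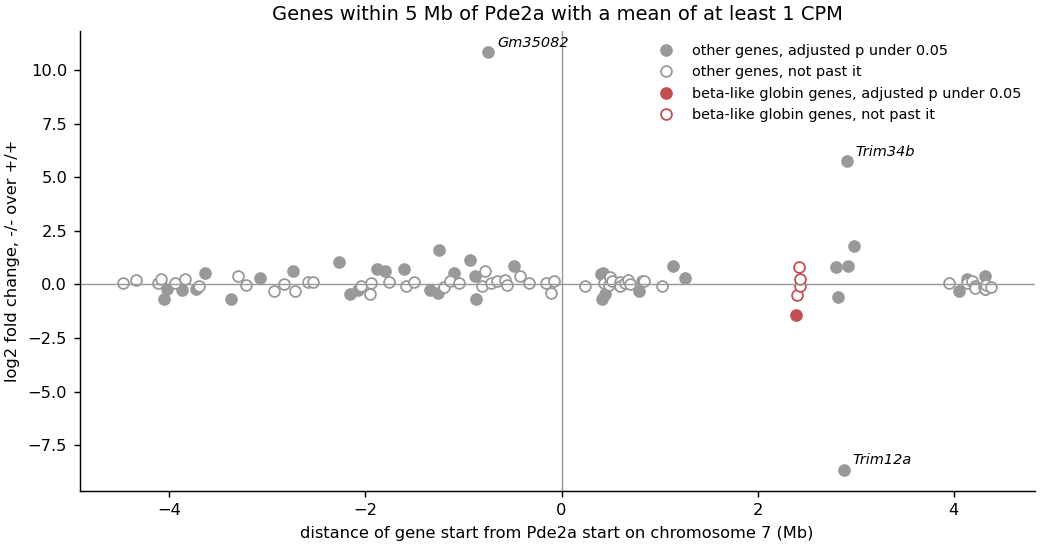
Log2 fold change, *Pde2A*-/- over *Pde2A*+/+, of the 101 genes within 5 Mb of the start of *Pde2a* whose mean reached 1 CPM, against the distance of their starts in Mb, red for the beta-like globin genes and grey for others, filled where the adjusted p is under 0.05 (42 genes). *Trim12a* and *Trim34b* lie beyond the globin genes at the extremes, and the plotted value of *Gm35082*, which had 0 counts in *Pde2A*+/+ hearts, depends on the fitting method.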

How the data were processed

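Stranded libraries of poly(A) RNA were read from 1 end. The authors mapped the reads to GRCm38 (mm10) with STAR and deposited raw read counts per gene for each heart, not normalized, as whole numbers for both strands, the sense strand and the opposite strand; a read that fits several places or genes is in no count, and the read length is not given in the sources used here. The sense counts were used, and replicates were hearts. Symbols came from GENCODE M21, which 55227 identifiers matched and 260 did not; *Ahsp* is not reported here.

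A gene needed a total of at least 10 counts (11 hearts) to enter the fit by edgeR 4.0.16 in R 4.3.3 (TMM, quasi-likelihood test, no covariate, Benjamini-Hochberg adjustment); the common biological coefficient of variation was 16.83%. CPM are TMM-scaled. Ratios were compared on the log2 scale by the share of the 462 splits with an absolute difference of means at least as large. The edgeR fit was tested on simulated counts, and the permutation test on small fixed examples against SciPy. Promoters came from RefSeq, transcripts from GENCODE M21. Python 3.11.15 was used.

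Named genes are *Pde2a*, the members, other globins and cluster neighbours, up to 3 called genes with the largest change and a mean of at least 1 CPM per list, and the 5 genes most like *Hba-x*, *Hba-a1* and *Hbb-bs*; *Bcl11a*, *Sox6*, *Alas2*, *Bpgm*, *Myb* and *Gm45837* were named after their values were seen, and 1 gene that the rule names is not reported here. Members and lists were chosen with earlier results of these data known. Alternatives were DESeq2 1.42.0, its size factors, other filters, both strands, members left out of library sizes, naming style, other thresholds, each heart left out and, chosen after seeing the data, hearts above 30 CPM of hepatocyte markers left out.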

Additional observations from a re-analysis of the deposited data

How the results depend on the processing

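The other 10 settings beside leaving out single hearts kept *Hbq1b* called higher, and all but 1 kept *Hbb-bt* called lower. With the hearts with hepatocyte markers left out (chosen after seeing the data, 4 and 3 hearts kept), 285 genes were called. Of these, 279 were higher and 6 lower, with 0 globin genes lower. *Hba-x* and *Hbb-y* turned to log2 fold changes of -0.0296 and -0.0644. The log2 difference between the genotypes was 0.20 for the embryonic to adult alpha ratio and turned to -0.0165 for adult alpha to adult beta. Fewer samples were fitted there, and the cause was not tested further. Genes called lower numbered 57 with DESeq2 and 37 with a stricter filter on low counts, against 90. A fold change of 1.5 gave 1196 genes (981 higher, 215 lower) and the adjusted p alone 3532 (2160 and 1372) under these looser rules.

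Among letter-named hearts the log2 differences were 1.39 (embryonic to adult alpha), 1.96 (beta), -0.86 (*Hbb-bt* to *Hbb-bs*) and 0.31 (adult alpha to beta), and among number-named hearts -0.0023 (adult alpha to beta) and 3.14 (theta to adult alpha). *Hba-x* over *Hba-a1* alone gave 0.68 (exact permutation p = 0.0628), *Hbb-y* over *Hbb-bs* alone 0.71 (exact permutation p = 0.134), and *Hbb-bh1*, the minor embryonic beta gene, over *Hbb-bs* alone 1.27 (exact permutation p = 0.0216).

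Leaving out each heart gave 35 (without *Pde2A*-/- heart 15) to 137 (without heart A) genes called lower and 1 to 2 globin genes called higher (2 without *Pde2A*+/+ heart 11). Embryonic to adult differences were 0.60 to 0.91 for alpha, where by the unadjusted exact permutation p 8 of 11 were no longer past 0.05. For beta they were 0.76 to 1.16, where 3 of 11 passed by the same unadjusted p. The other ratios kept their direction and side of the threshold in all 11. No paired analysis was possible because the genotypes share no replicate number. The planned ratio of *Ahsp* was not run. *Hbq1a*, with 5 to 21 counts per heart, has the lowest depth of the 9 genes.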
